A study of Mus musculus with 7 samples.

Results

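The genes described here are 10 members of the MHC class I antigen presentation pathway, H2-K1, H2-D1, H2-T23, B2m, Tap1, Tap2, Tapbp, Erap1, Calr and Nlrc5, measured by RNA-seq in 7 mouse Group 3 medulloblastomas (G3 MBs). They were chosen by gene symbol, for their place in the pathway, with earlier results of these data known. The count table held 34592 genes, and all 10 members had a row and were among the 17389 genes tested. The study asked how enforced expression of human WDR11, a WD-repeat protein, changed the transcriptome of these tumors, and compared 4 tumors labelled WDR11OE with 3 controls. All 7 came from tumorsphere line # 19568, a single line that goes back to Trp53-/-; Cdkn2c-/- cerebellar granule neuron progenitors transduced with a Myc-IRES-GFP retrovirus, so every tumor lacked Trp53 and Cdkn2c and carried Myc. The dissociated spheres received a lentivirus encoding WDR11 with copGFP from the EF1 promoter, or the empty vector, and were implanted unsorted in the cortices of young CD1-nu/nu mice, an athymic strain in which T cells do not mature. Per the study's methods the controls carried the empty vector, while their labels state a treatment of none. Per the labels, RNA was extracted from pieces of tumor taken when the mice were moribund, which can hold host cells of the brain, vessels and blood as well as tumor cells, although the source name given there is tumorspheres.

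MHC class I molecules show peptides from inside the cell to CD8 T cells and natural killer cells. Peptides made by the proteasome are carried into the endoplasmic reticulum by the transporter TAP, trimmed by ERAP1, and loaded with the help of tapasin and calreticulin on a heavy chain that is folded with beta-2 microglobulin. The genes are induced by interferons and NF-kappaB and through the SXY module of their promoters, on which the class I transactivator NLRC5 acts. Neurons and many neural tumors make little class I at rest, whereas microglia and endothelium make more.

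Stretches of 30 bases from the promoters of the 2 classical heavy chain genes are shown to compare them with other class I genes, and they were picked after the values were seen. They are from the coding strand of the gene, 5′ to 3′, found in the RefSeq promoters (build GRCm38.p6, 250 bases before each start). Where a gene had several RefSeq starts, as H2-K1 had 2, the most downstream was used. They were located by their only match on the chromosome of the gene in NCBIM37, the files' build, and other chromosomes were not searched. In the first set the capitals mark a kappaB motif (the first run of capitals in H2-K1), the interferon letters TTTCACTTC (the second run), or, in B2m and H2-T23, the ISRE letters GAAA, any 2 bases and GAAA, in either orientation.
H2-K1: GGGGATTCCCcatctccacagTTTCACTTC
H2-D1: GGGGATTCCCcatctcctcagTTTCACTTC
H2-M3: attcccccatttcctctgaggTTTCACTTC
B2m: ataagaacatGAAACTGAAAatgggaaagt
H2-T23: atcctactgcTTTCTCTTTCataaagacac
In H2-K1 this window lay at chr17:34137374-34137403 on the minus strand, 125 to 96 bases before the RefSeq start, and in H2-D1 at chr17:35399868-35399897 on the plus strand, 171 to 142 bases before it. The windows of the others were chr17:37407057-37407086 (plus, H2-M3), chr2:121973274-121973303 (plus, B2m) and chr17:36169751-36169780 (minus, H2-T23). Those of H2-D1 and H2-T23 lie inside the gene as annotated in NCBIM37, although before the RefSeq start. H2-K1 and H2-D1 had the same base at 29 of the 30 positions, and H2-K1 and H2-M3 at 14 of 30. In the second set, nearer the start, the capitals mark the X2 letters TGACGC and CCAAT in either orientation.
H2-K1: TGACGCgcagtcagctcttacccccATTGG
H2-D1: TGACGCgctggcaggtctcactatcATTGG
H2-M3: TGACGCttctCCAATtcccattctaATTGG
These were chr17:34137304-34137333 (minus), chr17:35399938-35399967 (plus) and chr17:37407133-37407162 (plus), and H2-K1 matched H2-D1 at 23 and H2-M3 at 17 of the 30 positions.

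Of 32851 RefSeq promoters searched on both strands, 28 (0.0852%) held the kappaB letters, 132 (0.402%) the interferon letters, 2.98% the ISRE letters, 6.12% the X2 letters and 33.9% CCAAT. The kappaB and interferon letters stood together in 5 promoters (0.0152%), which belonged to H2-K1, H2-D1, H2-Q6 and H2-Q7. A promoter entry was found for 8 of the 10 members, the exceptions being Tap2 and Nlrc5. The kappaB, interferon and X2 letters were each found in 2 of these 8, H2-K1 and H2-D1 in every case, the ISRE letters in 2, H2-T23 and B2m, and CCAAT in 7, all but Erap1, which held none of the 5. The letters are a description of the sequence, are read here as no link to the calls below, and no binding was measured in these tumors.

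Total counts ranged from 33417175 to 41397427 in the controls and from 32116095 to 87141305 in the tumors labelled WDR11OE. The study reported raised WDR11 transcript by qRT-PCR in tumors of this line, and WDR11 protein in spheres grown from such tumors. In the counts used here, the row for human WDR11 did not separate the labels, for a reason that was not tested. It stood at 2.03, 2.19 and 3.13 CPM (counts scaled to a common library size) in the controls and at 4.38, 2.11, 3.05 and 0.624 CPM in the tumors labelled WDR11OE (log2 fold change 0.05, adjusted p = 0.961 in edgeR's quasi-likelihood test), so each direction below is between labels. Mouse Wdr11 was at 58.3 to 59.3 CPM in the controls and at 61.0 to 68.9 CPM in the other group (adjusted p = 0.0910, edgeR). Myc was at 812 to 1109 CPM in the controls and 278 to 431 CPM in the tumors labelled WDR11OE, while Atoh1, a gene of granule progenitors, had 0 counts in every library and Otx2, a marker of human G3 MB, had 3 to 20. The libraries of the 2 groups came from separate numbered series, so any difference between these series cannot be told apart from the condition. The labels do not tie libraries to mice, so p-values measure the spread between these samples, and 2 titles in the WDR11OE group (replicates 1 and 2) share a number.

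Of the 10 members, 3 were called higher in the tumors labelled WDR11OE at an adjusted p under 0.05 (H2-K1, H2-D1 and Erap1), 0 were called lower and 7 did not pass. Among all genes tested, 18.1% were called higher and 15.8% lower. The groups did not overlap, with the tumors labelled WDR11OE higher, for 5 of the 10, beside 23.5% of all genes tested. The log2 fold change was above 0 for 8 of the 10 (55.8% of all genes), with a median of 0.53 over the members and 0.08 over all genes tested. The largest change was that of H2-K1, the only member called with a change of at least 2-fold, which (with an average log2 CPM above 0) 2.36% of all genes reached in that direction and 3.45% in the other. In bulk RNA, fewer cells of a type and less RNA per cell cannot be told apart.

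**Figure D1:**
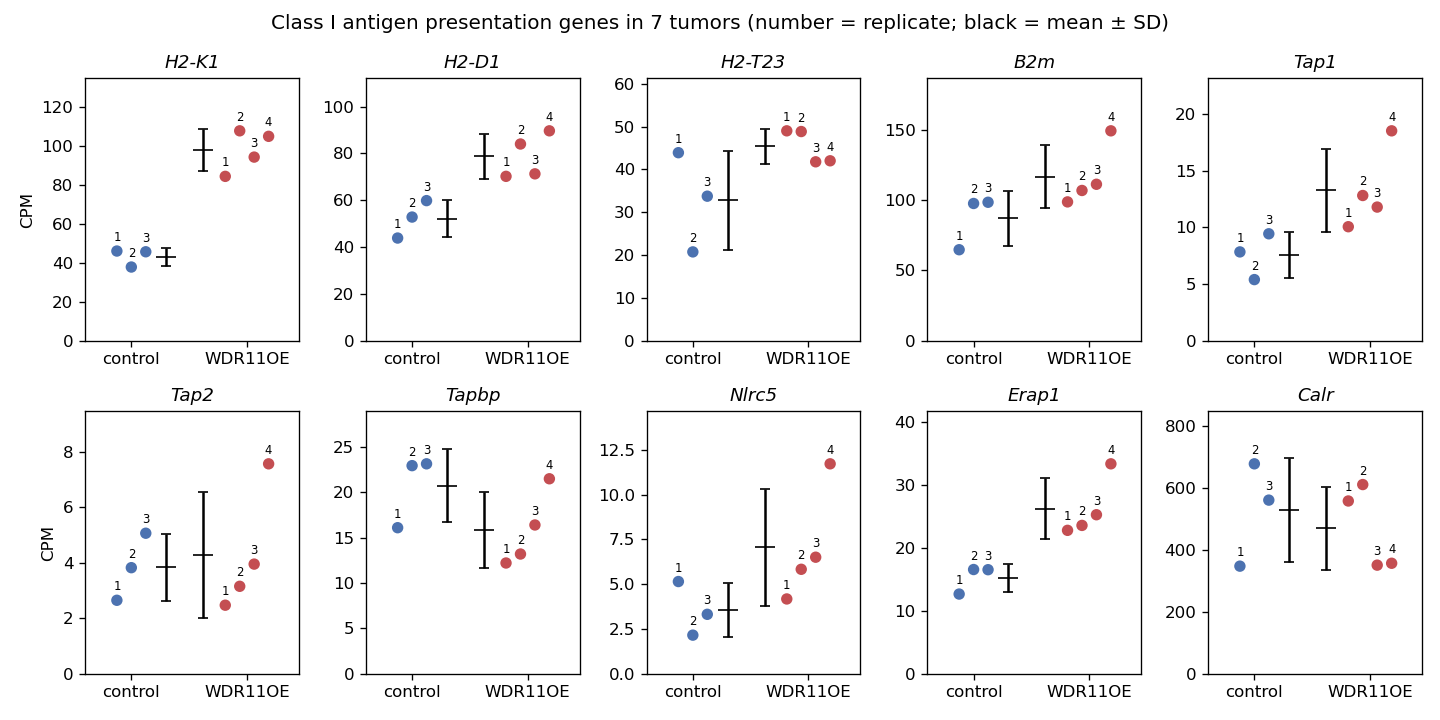
CPM (vertical axes, from 0) of each of the 10 class I members in 3 control tumors (blue) and 4 tumors labelled WDR11OE (red), 1 point per tumor with its replicate number, and the mean ± SD of each group in black. H2-K1 lies at 37.8 to 46.1 CPM in the controls and 84.5 to 108 CPM in the other group, and replicate 4 of WDR11OE is the highest point in 6 of the 10 panels.

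H2-K1 encodes the classical heavy chain H-2K, which presents peptides to CD8 T cells (chr17:34132962-34137278, minus strand, NCBIM37). It was at 46.1, 37.8 and 45.7 CPM in the 3 control tumors and at 84.5, 108, 94.4 and 105 CPM in the 4 tumors labelled WDR11OE. The lowest tumor labelled WDR11OE lay well above the highest control, and the spread within each group was small (SD 4.65 around 43.2 CPM, n = 3, and SD 10.7 around 98.0 CPM, n = 4). The fold was 2.27 (log2 fold change 1.18, SE 0.12, adjusted p = 0.00105, edgeR), and the two-sided exact permutation p was 0.0286, the smallest that 35 splits of 7 tumors allow. H2-K1 passed under all 17 alternative settings, with log2 fold changes of 1.08 to 1.28.

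H2-D1 encodes the other classical heavy chain of the file, H-2D (chr17:35399675-35404444, plus strand). Its level was 43.8, 52.8 and 59.8 CPM in the controls and 70.2, 84.0, 71.2 and 89.6 CPM in the tumors labelled WDR11OE. The groups did not overlap, but the rise was smaller than that of H2-K1 (1.51-fold, log2 fold change 0.60, SE 0.13, adjusted p = 0.0136, edgeR; exact permutation p = 0.0286). Control 1 was the lowest of the 7 tumors for H2-D1. The call was lost (adjusted p = 0.0562, edgeR) only when control 1 and WDR11OE 4, the libraries richest in neuron markers, were both left out, which gave 0.37.

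The ratio of H2-K1 to H2-D1 within a tumor does not depend on the scaling of the library. In CPM, it was 1.05, 0.717 and 0.764 in the controls and 1.20, 1.29, 1.33 and 1.17 in the tumors labelled WDR11OE. H2-K1 was thus the lower of the pair in 2 of 3 controls and the higher in 4 of 4 of the other tumors. The difference of the log2 ratio was 0.58 (exact permutation p = 0.0286, 0.0857 after Benjamini-Hochberg adjustment over the 9 ratios of H2-K1 to another member). The differences to Tapbp (1.59) and Calr (1.34) had the same p-values, and those to Nlrc5 (0.21, exact permutation p = 0.486), Tap1 (0.37, p = 0.143) and Erap1 (0.40, p = 0.143) were the smallest. These ratios were not among the planned tests. H2-K1 had the largest change of the members, so the positive sign of each difference follows from its choice, and the p-values are a description only.

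Counts of these chains depend on how reads of shared sequence were assigned. The longest run that the coding sequences of H2-K1 and H2-D1 shared was 91 bases, in exon 4 of 8 of both, the exon that encodes the membrane-proximal alpha-3 domain. It is shown because a single read that lies wholly within it matches both genes in the reference.
H2-K1 and H2-D1: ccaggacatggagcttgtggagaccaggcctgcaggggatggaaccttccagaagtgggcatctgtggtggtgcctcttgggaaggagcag
In NCBIM37 it lay at chr17:34134288-34134378 on the minus strand (H2-K1) and chr17:35402856-35402946 on the plus strand (H2-D1), and it matched 5 places on the chromosome. Stretches of 75 bases were compared between protein-coding transcripts only, so pseudogenes such as H2-K2 were not searched. Of these stretches, 1.22% in H2-K1, 5.56% in H2-D1 and 6.80% in H2-T23 also occurred in a coding transcript of another gene. The share was 0 for B2m, Tap1, Tap2, Tapbp, Erap1 and Calr. The H2 haplotypes of the donor and host mice were not tested against the reference, and reads of a haplotype that differs from it may be lost or moved between these genes.

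H2-T23 encodes Qa-1, a non-classical chain that presents leader peptides of other class I chains to the CD94/NKG2 receptors of natural killer cells (chr17:36166718-36169800, minus strand). It was at 43.9, 20.7 and 33.7 CPM in the controls and at 49.0, 48.9, 41.8 and 42.0 CPM in the tumors labelled WDR11OE. The groups overlapped through control 1, and the difference did not pass (log2 fold change 0.47, SE 0.23, adjusted p = 0.163, edgeR; exact permutation p = 0.0857). Without control 1 the value was 0.74 and passed (adjusted p = 0.0413, edgeR), without control 2 it was 0.22 (adjusted p = 0.291, edgeR), and it passed in 2 of 17 alternatives.

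B2m encodes beta-2 microglobulin, the light chain that all these heavy chains need to fold (chr2:121973422-121978819, plus strand). It was at 64.7, 97.7 and 98.6 CPM in the controls and at 98.8, 107, 111 and 149 CPM in the tumors labelled WDR11OE. The lowest of the second group was barely above the highest control, control 1 was low and WDR11OE 4 was high. The log2 fold change was 0.42 (SE 0.20, adjusted p = 0.139, edgeR; exact permutation p = 0.0571), and it was 0.25 without control 1, 0.28 without WDR11OE 4, and 0.06 with the trend on GC content removed and also with control 1 and WDR11OE 4 left out. Per kilobase of exon, H2-K1 and H2-D1 together stood at 0.460, 0.307 and 0.354 of the level of B2m in the controls and at 0.518, 0.594, 0.492 and 0.431 of it in the other group, so the light chain transcript was the more abundant in all 7 tumors.

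Tap1 encodes a subunit of the peptide transporter (chr17:34324498-34334170, plus strand). Its values were 7.84, 5.39 and 9.44 CPM in the controls and 10.1, 12.8, 11.8 and 18.5 CPM in the tumors labelled WDR11OE. The groups did not overlap, and the adjusted p lay just above 0.05 (log2 fold change 0.82, SE 0.27, adjusted p = 0.0535, edgeR; exact permutation p = 0.0571). Tap1 passed in 3 of 17 alternatives, with DESeq2 (adjusted p = 0.0166), with upper quartile scaling (0.0409, edgeR) and with a filter of 1 CPM in 3 tumors (0.0407, edgeR). Its log2 fold change ranged from 0.60, with both control 1 and WDR11OE 4 left out (adjusted p = 0.139, edgeR), to 1.01, and the largest adjusted p was 0.154, without control 2 (0.62, edgeR). Exons of Tap1 and Psmb9, which lie on opposite strands, share 412 bases in the annotation, and Psmb9 had 19.9% as many counts as Tap1.

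Tap2, the partner subunit of the transporter (chr17:34340472-34353266, plus strand), was at 2.64, 3.82 and 5.06 CPM in the controls and at 2.46, 3.14, 3.94 and 7.56 CPM in the tumors labelled WDR11OE. The groups overlapped throughout, with WDR11OE 4 above and WDR11OE 1 below every other tumor (log2 fold change 0.16, SE 0.42, adjusted p = 0.807, edgeR; exact permutation p = 0.943). The ratio of Tap1 to Tap2 in CPM was 2.97, 1.41 and 1.87 in the controls and 4.09, 4.08, 2.99 and 2.45 in the other group, which overlapped. The direction of Tap2 turned without control 1, without WDR11OE 4 and without both.

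Tapbp encodes tapasin, which holds the empty chain at the transporter (chr17:34052844-34066235, plus strand). It was at 16.1, 22.9 and 23.1 CPM in the controls and at 12.2, 13.2, 16.4 and 21.5 CPM in the tumors labelled WDR11OE. The groups overlapped, and the value of -0.39 (SE 0.23) did not pass (adjusted p = 0.238, edgeR; exact permutation p = 0.171). Without WDR11OE 4 it was -0.58 and passed as lower (adjusted p = 0.0487, edgeR), as it did with control 1 left out too (-0.78, adjusted p = 0.0115, edgeR). Tapbp and Zbtb22 share 61 exonic bases on the same strand, and Zbtb22 had 107% as many counts.

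Calr encodes calreticulin, a general chaperone of glycoproteins that is also part of the loading complex (chr8:87365749-87370833, minus strand). Its level was 348, 679 and 561 CPM in the controls and 559, 612, 351 and 357 CPM in the tumors labelled WDR11OE. Each group held low and high tumors, and the difference did not pass (log2 fold change -0.17, SE 0.29, adjusted p = 0.689, edgeR; exact permutation p = 0.714) and turned to 0.05 without control 2.

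Erap1 encodes the aminopeptidase that trims peptides to the length that fits the class I groove (chr13:74777320-74829983, plus strand). It was at 12.6, 16.5 and 16.5 CPM in the controls and at 22.8, 23.6, 25.3 and 33.4 CPM in the tumors labelled WDR11OE. The groups were well apart, with control 1 the lowest and WDR11OE 4 the highest tumor, and Erap1 rose 1.72-fold (log2 fold change 0.78, SE 0.17, adjusted p = 0.0119, edgeR; exact permutation p = 0.0286). Its exons hold 41.2% GC, as do those of B2m, against a median of 49.8% over the genes tested, 45.0% over those called higher and 53.4% over those called lower. With the trend of fold change on GC removed, the value was 0.43 and did not pass (adjusted p = 0.120, edgeR), while H2-K1 (54.4% GC) and H2-D1 (53.5% GC) still did. The same step took the count over all genes from 3150 higher and 2744 lower to 766 and 1597.

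Nlrc5 encodes the transactivator of class I genes (chr8:96996663-97051172, plus strand). Its values were 5.14, 2.15 and 3.31 CPM in the controls and 4.17, 5.83, 6.50 and 11.7 CPM in the tumors labelled WDR11OE. Control 1 was above WDR11OE 1, and the 2.00-fold difference (SE 0.43 on the log2 scale) did not pass (adjusted p = 0.116, edgeR; exact permutation p = 0.114). Without WDR11OE 4 the log2 fold change was 0.64 (adjusted p = 0.200, edgeR), and without control 1 it was 1.37 (adjusted p = 0.0735, edgeR).

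Levels of different genes are compared per kilobase of annotated exon. Over the controls, Calr (184 ± 58.3 CPM per kb, SD, n = 3) and B2m (101 ± 22.4) were the most abundant, and their values did not overlap. H2-D1 (20.1 ± 3.10), H2-K1 (16.6 ± 1.78) and H2-T23 (11.4 ± 4.02) followed, and the values of neighbours in this order overlapped. Tapbp (6.28 ± 1.22) and Erap1 (3.26 ± 0.480) came next, each without overlap with its neighbours, and then Tap1 (1.38 ± 0.373), Tap2 (1.01 ± 0.320) and Nlrc5 (0.484 ± 0.207), where neighbours overlapped again. In the tumors labelled WDR11OE, H2-K1 (37.6 ± 4.11, SD, n = 4) stood before H2-D1 (30.4 ± 3.70). Over all 7 tumors, H2-K1 was at the percentile 90.0 and Nlrc5 at 18.7 of the protein-coding genes tested.

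WDR11OE 4 held the highest value of 6 of the 10 members (H2-D1, B2m, Tap1, Tap2, Nlrc5 and Erap1). Control 1 and control 2 held the lowest value of 4 members each. H2-K1 was not among the first, and its 4 values in the tumors labelled WDR11OE lay within 84.5 to 108 CPM. How often WDR11OE 4 was highest, or control 1 or 2 lowest, over all genes tested was not counted.

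Outside the members, 101 other genes of the pathway and its control were tested. Of these, 17 (16.8%) were called higher, 9 (8.91%) lower and 75 did not pass, with a median log2 fold change of 0.36. Over all genes tested, 18.1% were called higher and 15.8% lower, with a median of 0.08. The same shares are the background for the count of each list below. Without WDR11OE 1 or without WDR11OE 2 the count of these genes called higher was 6 in each case. With the trend on GC removed it was 5 (H2-M3, H2-K2, Igtp, Bst2 and H2-Aa). Over all genes the count called higher fell from 3150 to 1560, 1657 and 766 in these settings, in that order. Of the other class I chains and class I-like proteins, 17 were tested, 3 were called higher, 0 lower and 14 did not pass (median 0.44).

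H2-M3, a non-classical chain that binds N-formylated peptides, was at 3.11, 2.12 and 2.97 CPM in the controls and at 6.37, 7.93, 6.81 and 7.01 CPM in the tumors labelled WDR11OE. It showed no overlap and a rise of 2.57-fold, larger than that of H2-K1 in size (log2 fold change 1.36, SE 0.20, adjusted p = 0.00241, edgeR), and it passed in all 17 alternatives. H2-T22, whose product binds T-cell receptors of gamma-delta cells, was at 17.7 to 20.5 CPM in the controls and 23.2 to 26.8 CPM in the other group (log2 fold change 0.39, adjusted p = 0.0165, edgeR). The pseudogene H2-K2 was at 0.667 to 0.954 CPM in the controls and 1.30 to 1.97 CPM in the other group (0.95, adjusted p = 0.0285, edgeR). Sequence that H2-K2 shares with the members was not searched. The call of H2-T22 passed in 9 of 17 alternatives and was lost without control 1 or 2 or WDR11OE 1 or 2, and that of H2-K2 passed in 8 and was lost without any single tumor but control 2. The lowest value of the list was that of Hfe, a regulator of iron uptake (-0.29, adjusted p = 0.624, edgeR), which was -0.02 without control 2.

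**Figure D2:**
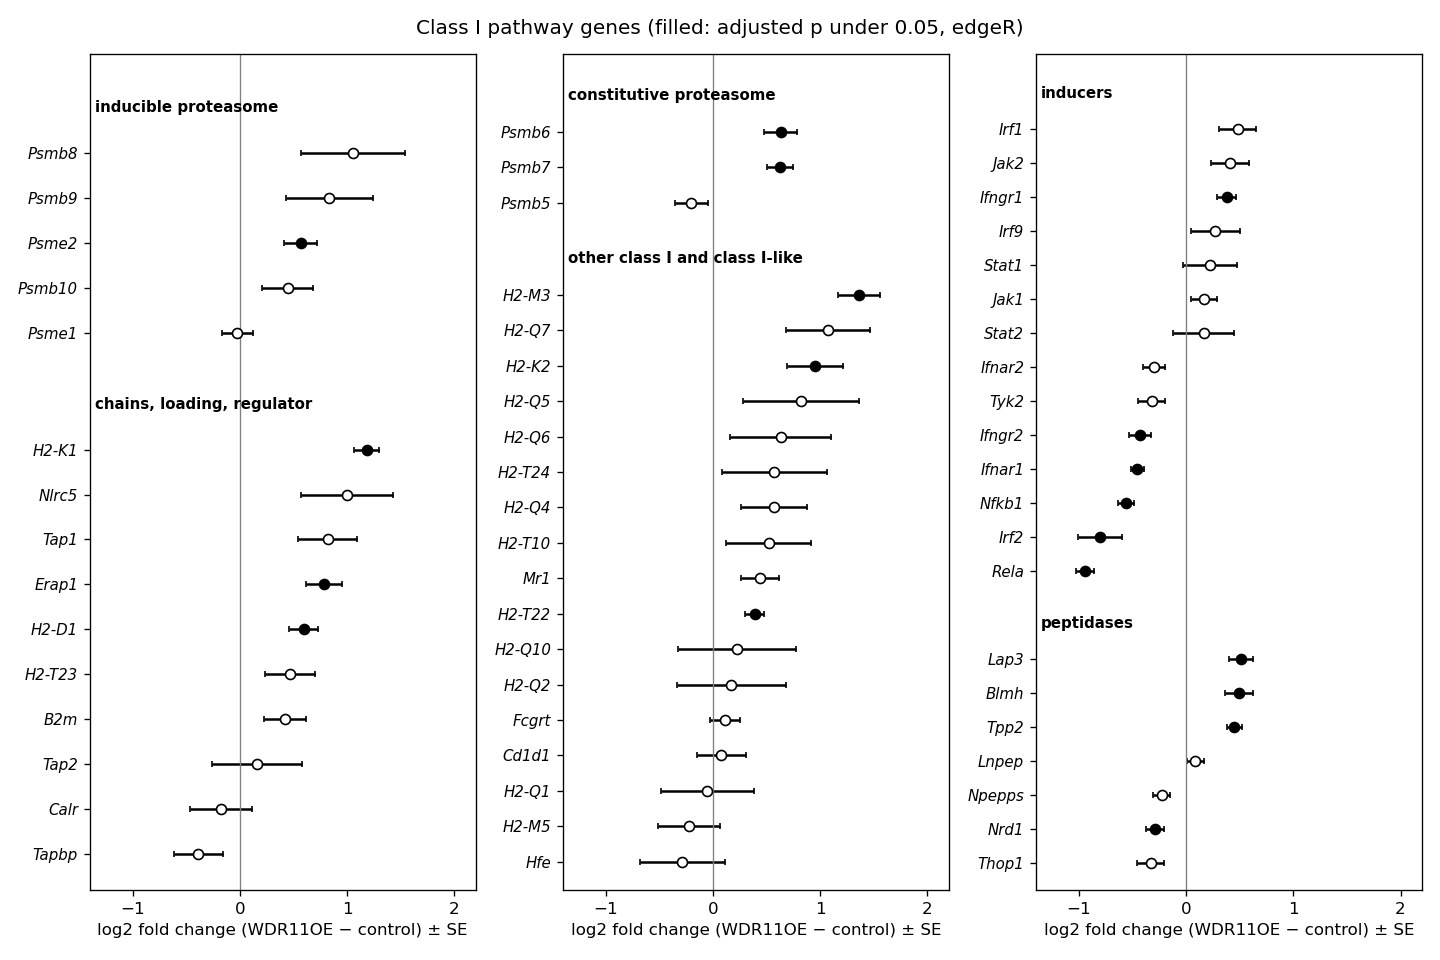
Log2 fold change (WDR11OE minus control, horizontal axes) ± SE of the tested members and of 5 lists of other pathway genes, filled where the adjusted p of edgeR was under 0.05. H2-K1 at 1.18 and H2-M3 at 1.36 have the largest filled values, and Rela at -0.94 the lowest.

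Among 5 genes of the inducible proteasome, 1 was called higher and 4 did not pass (median 0.57). Psme2, a subunit of the PA28 activator, rose, with 12.8 to 20.4 CPM in the controls and 24.2 to 26.6 CPM in the tumors labelled WDR11OE (log2 fold change 0.57, adjusted p = 0.0291, edgeR), a call kept in 9 of 17 alternatives and lost without control 2, without WDR11OE 1, 2 or 3 and with the GC trend removed. Psmb8, the inducible chymotrypsin-like subunit, was at 1.95, 4.27 and 4.96 CPM in the controls and at 4.52, 5.56, 6.87 and 14.0 CPM in the other group, which overlapped (1.06, SE 0.48, adjusted p = 0.137, edgeR). Without WDR11OE 4 the value of Psmb8 was 0.60, and it was 0.24 without control 1 and WDR11OE 4. Psmb9 (0.83, adjusted p = 0.161, edgeR; 0.49 without WDR11OE 4) shares exonic bases with Tap1, and Psme1 was at -0.02 (adjusted p = 0.926, edgeR).

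Of the 3 constitutive subunits that the inducible ones replace, Psmb7 (0.62, adjusted p = 0.00754, edgeR) and Psmb6 (0.63, adjusted p = 0.0183, edgeR) were called higher and Psmb5 was not (-0.20, adjusted p = 0.356, edgeR). Psmb7 passed in 16 and Psmb6 in 11 of 17 alternatives, and neither did with the GC trend removed. The call of Psmb6 was lost without control 2, without WDR11OE 1 and without WDR11OE 2.

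Among 7 peptidases that trim or destroy peptides, 3 were called higher, 1 lower and 3 did not pass. Tpp2, which trims long proteasome products, was at 122 to 139 CPM in the controls and 178 to 189 CPM in the tumors labelled WDR11OE (0.45, adjusted p = 0.00324, edgeR). Lap3 (0.51, adjusted p = 0.0115, edgeR) and Blmh (0.49, adjusted p = 0.0228, edgeR), cytosolic peptidases, passed in 13 and 9 of 17 alternatives, and both were lost without WDR11OE 1 or 2, Blmh also without control 1 or 2. Nrd1, named because it was the call in the other direction, was at -0.29 (adjusted p = 0.0365, edgeR), a call lost without any single tumor but control 2. Thop1, a peptidase that destroys peptides, had the lowest value of the list (-0.33, adjusted p = 0.0815, edgeR), which passed without control 1 (-0.44, adjusted p = 0.0361, edgeR). With the GC trend removed, Tpp2 was at 0.12, Thop1 at -0.05, and Tpp2, Lap3, Blmh and Nrd1 did not pass. In that setting 0 of the 7 were called higher and 1 lower, a gene that had not been called in the main fit.

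Of 10 chaperones and enzymes of the endoplasmic reticulum, 1 was called higher, 1 lower and 8 did not pass (median 0.08). Bcap31, a membrane protein of export from that organelle, was at 36.3 to 40.1 CPM in the controls and 47.7 to 61.3 CPM in the tumors labelled WDR11OE (0.47, adjusted p = 0.0109, edgeR), and lost the call without WDR11OE 1 or 2 and with the GC trend removed. Prkcsh, the beta subunit of glucosidase II, fell, with 84.2 to 111 CPM in the controls and 50.6 to 71.3 CPM in the other group (-0.70, adjusted p = 0.00811, edgeR). With the GC trend removed it was -0.46 and did not pass (adjusted p = 0.195, edgeR), and it passed in the other 16 alternatives. The highest value was that of Hsp90b1, a chaperone that folds many secreted proteins (0.59, adjusted p = 0.0944, edgeR).

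Of 14 transcription factors and receptors that induce class I, 1 was called higher, 5 lower and 8 did not pass (median -0.07). Rela, the NF-kappaB subunit p65, was at 27.0, 28.1 and 28.9 CPM in the controls and at 13.9, 15.7, 14.1 and 14.7 CPM in the tumors labelled WDR11OE, without overlap (log2 fold change -0.94, SE 0.08, adjusted p = 0.000974, edgeR). Nfkb1, which encodes p105 and p50, was at 43.9 to 50.9 CPM and 31.3 to 33.7 CPM (-0.56, adjusted p = 0.00179, edgeR), and Ifnar1, a chain of the type I interferon receptor, at 59.0 to 67.1 CPM and 45.9 to 47.0 CPM (-0.45, adjusted p = 0.00221, edgeR). These passed in all 17 alternatives.

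The other calls of that list, named because they passed, were Irf2 (-0.80, adjusted p = 0.0225, edgeR), a repressor and activator of interferon genes, and the interferon-gamma receptor chains Ifngr2 (-0.43, adjusted p = 0.0193, edgeR) and Ifngr1 (0.38, adjusted p = 0.0148, edgeR), which went opposite ways. The call of Irf2 was lost without control 2 or 3, that of Ifngr2 without control 1 or WDR11OE 1, and that of Ifngr1 without WDR11OE 1 or 2, and both receptor chains lost it with the GC trend removed. Irf1, an interferon-induced activator of class I, was at 8.53 to 12.3 CPM in the controls and from 12.9 CPM upwards in the other group, without overlap, and did not pass (0.48, adjusted p = 0.0654, edgeR), but did without control 3 (0.63, adjusted p = 0.0398, edgeR), while it was 0.22 without control 1 and WDR11OE 4 (adjusted p = 0.278, edgeR).

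Of 8 factors that bind the SXY module, Nfyb (0.41, adjusted p = 0.00979, edgeR) and Creb1 (0.36, adjusted p = 0.0111, edgeR) were called higher and Nfya (-0.50, adjusted p = 0.0227, edgeR) lower, and 5 did not pass. All 3 calls were lost without WDR11OE 1 and without WDR11OE 2, and that of Nfya also without control 2 or 3. With the GC trend removed 0 of the 8 were called in either direction by edgeR, and Creb1 turned to -0.06, while 3 were called lower with voom and 4 with DESeq2. Of 4 subunits of polycomb repressive complex 2, Eed was called higher (0.38, adjusted p = 0.0117, edgeR), and Suz12, Ezh1 and Ezh2 lay between -0.04 and 0.13. The call of Eed was lost without WDR11OE 1 or 2 and with the GC trend removed, and Ezh2, the methyltransferase, was at 94.9 to 107 CPM in the controls and 87.2 to 101 CPM in the other group.

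Of 24 interferon-stimulated genes outside antigen presentation, 2 were called higher, 1 lower and 21 did not pass. Over all genes tested, 18.1% were called higher and 15.8% lower. The log2 fold change was above 0 for 23 of the 24 (55.8% of all genes), with a median of 0.60 (0.08 over all genes). The highest tumor was WDR11OE 4 for 22 of the 24, and the summed level of the list was 473 CPM there, 197 to 232 CPM in the other tumors labelled WDR11OE and 184 to 297 CPM in the controls.

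Igtp, an interferon-gamma-induced GTPase, was at 3.61, 3.17 and 5.70 CPM in the controls and at 12.2, 9.77, 14.7 and 23.5 CPM in the tumors labelled WDR11OE (log2 fold change 1.85, SE 0.36, adjusted p = 0.00758, edgeR). Bst2, the virus-tethering protein tetherin, was at 20.5 to 26.5 CPM in the controls and 41.3 to 56.4 CPM in the other group (1.10, adjusted p = 0.00156, edgeR). Ly6e, a GPI-anchored surface protein, went the other way, with 63.1 to 82.4 CPM in the controls and 23.7 to 26.5 CPM in the other group (-1.56, adjusted p = 0.000858, edgeR). All 3 showed no overlap and passed in all 17 alternatives.

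MHC class II genes, whose products present peptides from outside the cell and are made by microglia, macrophages and B cells, summed to 714 to 1121 CPM in the controls and 997 to 1444 CPM in the tumors labelled WDR11OE. Of 9 tested, 1 was higher and 8 did not pass (median 0.43). H2-Aa was at 147, 72.3 and 131 CPM in the controls and at 290, 319, 287 and 238 CPM in the tumors labelled WDR11OE (log2 fold change 1.28, SE 0.24, adjusted p = 0.00683, edgeR). Its partner H2-Ab1, named for comparison after its values were seen, was at 107 to 174 CPM and 125 to 231 CPM (0.27, adjusted p = 0.444, edgeR), and H2-Eb1 at 95.3 to 167 CPM and 139 to 226 CPM (0.43, adjusted p = 0.206, edgeR). Ciita, the class II transactivator, was at 126 to 151 CPM in the controls and 105 to 147 CPM in the other group (-0.14, adjusted p = 0.473, edgeR). H2-DMb1, of the class II loading complex, was at 58.9 to 120.7 CPM in the controls and 121.0 to 167.7 CPM in the other group, barely without overlap. It did not pass (0.65, adjusted p = 0.0766, edgeR), but passed without control 1 (0.87, adjusted p = 0.0432, edgeR), while without control 2 it was 0.40. H2-Ob, a chain of the modulator of class II loading, had the highest value of the list (1.61, adjusted p = 0.209, edgeR) at no more than 0.758 CPM in any tumor, which was 0.99 without control 2 and 2.47 without control 3, and H2-Oa, at no more than 0.237 CPM, did not pass the filter.

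**Figure D3:**
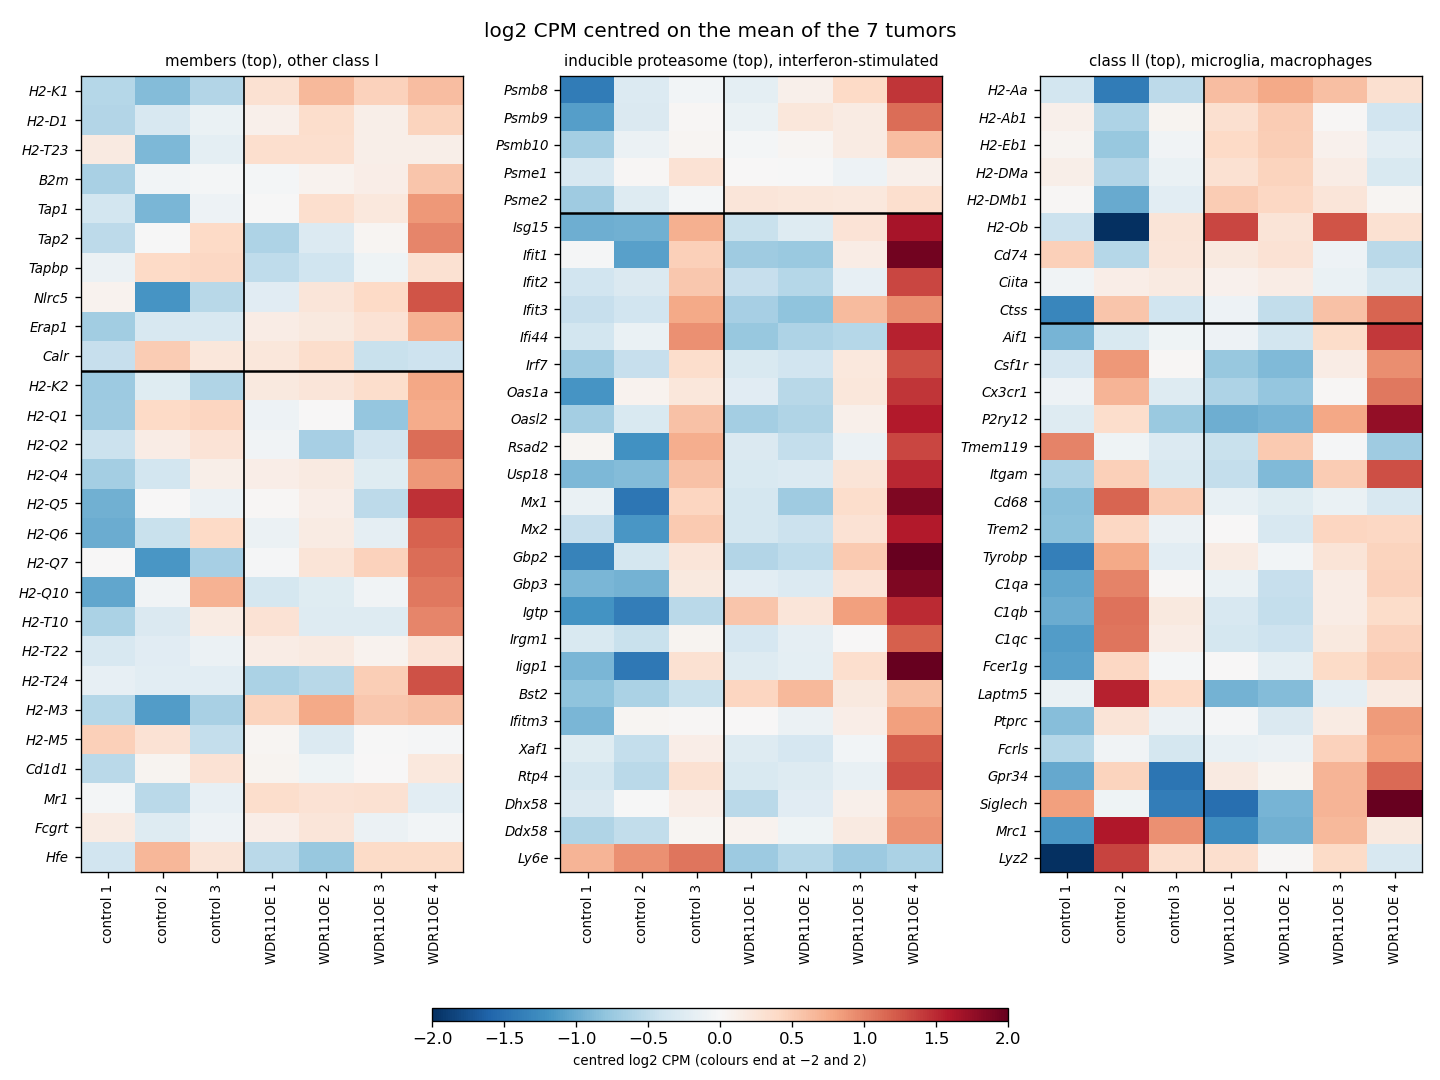
Log2 CPM of each tested gene of 6 lists, centred on its mean over the 7 tumors (colour, with scale bar from -2 to 2, rows are genes and columns tumors). H2-K1 and H2-M3 are below their mean in all 3 controls and above it in all 4 tumors labelled WDR11OE, and 22 of 24 interferon-stimulated genes are highest in WDR11OE 4.

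Most members lie in the H2 region, so their neighbours were examined. Between Tapbp and H2-M3 (chr17:34052844-37411429) 135 genes were tested, of which 19 (14.1%) were called higher and 21 (15.6%) lower. The median was 0.13, and over all genes tested the values were 18.1%, 15.8% and 0.08. Of the 107 genes of the region that are in no list, 13 were higher and 21 lower (median -0.03). Examples from the 107 were picked after their values were seen. Brd2, Ehmt2 and Bag6 were called lower at -0.39, -0.72 and -0.77 (adjusted p = 0.00549, 0.00309 and 0.000917, edgeR). Trim39 and Rps18 were called higher at 0.49 and 0.52 (adjusted p = 0.00890 and 0.0219, edgeR).

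**Figure D4:**
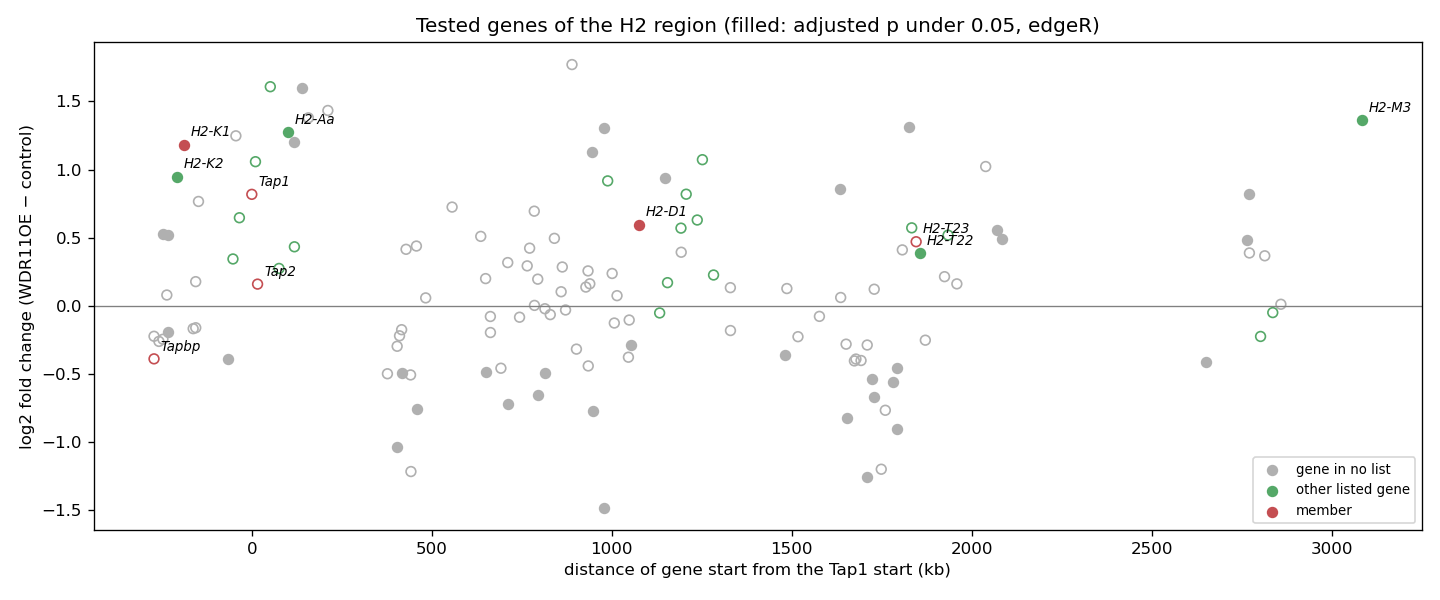
Log2 fold change (WDR11OE minus control, vertical axis) of the tested genes of the H2 region against the distance of their start from that of Tap1 in kb, with members in red, other listed genes in green and genes in no list in grey, filled where the adjusted p of edgeR was under 0.05. Of the 135 genes, 19 filled points are above 0 and 21 below.

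Marker genes of other cells that a piece of tumor can hold were summed in each tumor. The 20 markers of microglia and macrophages stood at 228 to 677 CPM in the controls and at 297 to 458 CPM in the tumors labelled WDR11OE, and 0 of the 20 were called by edgeR. The summed level was lowest in control 1 and highest in control 2, and the part of these cells in the results was not tested.

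The 12 endothelial markers were at 196 to 259 CPM in the controls and at 131 to 163 CPM in the other group. Of them, 4 were called lower (Cdh5, Flt1, Esam and Eng) and 0 higher, beside 15.8% and 18.1% of all genes tested. The part of endothelium in the results was not tested. Of 16 markers of T, B and NK cells, 2 passed the filter, the sum was 2.12 to 5.67 CPM in the controls and 4.05 to 5.07 CPM in the other group, and Cd3e had 0 to 2 counts. The 8 markers of skeletal muscle were at 3.27 to 6.06 CPM in the controls and at 43.5 to 130 CPM in the tumors labelled WDR11OE, and 8 of 8 were called higher. The part of muscle in the results was not tested.

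The 10 neuron markers were at 77.5 to 484 CPM in the controls and at 13.4 to 697 CPM in the other group, highest in control 1 and in WDR11OE 4, with 0 of 10 called by edgeR, and the 9 markers of astrocytes and oligodendrocytes at 335 to 740 CPM and 146 to 884 CPM, with 0 of 9 called by edgeR. With control 1 and WDR11OE 4 left out, H2-K1 kept its call and Erap1 was at 0.48 (adjusted p = 0.0142, edgeR), while H2-D1 lost its call as given above. The 8 genes of the granule lineage and G3 MB, which Myc dominates, were at 844 to 1145 CPM in the controls and 310 to 456 CPM in the other group, with 1 of 5 tested called lower. The part of the tumor cell share in these results was not tested.

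**Figure D5:**
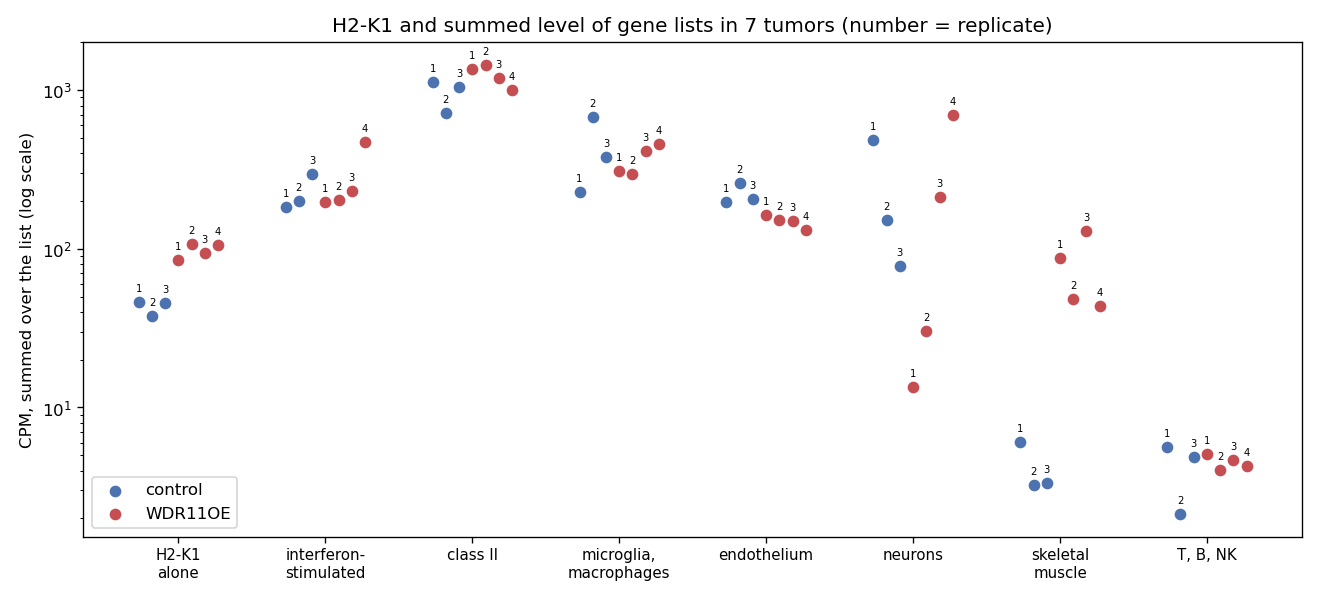
CPM on a log axis of H2-K1 and of 7 gene lists summed in each of 3 control tumors (blue) and 4 tumors labelled WDR11OE (red), with replicate numbers. H2-K1 and skeletal muscle markers are higher and endothelial markers lower in the tumors labelled WDR11OE without overlap, and neuron markers are highest in WDR11OE 4 (697 CPM) and control 1 (484 CPM).

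The genes outside the lists whose pattern over the 7 tumors was nearest to that of H2-K1 were Cbr4, Trnt1, SNORA40, Gm10221 and Cox6c, of 14636 candidates. Likeness was the mean absolute difference of the centred log2 CPM, which was 0.087, 0.094, 0.097, 0.104 and 0.105 in that order. Trnt1, which adds the CCA end to tRNAs, was at 55.1, 50.5 and 61.7 CPM in the controls and at 122, 126, 121 and 124 CPM in the tumors labelled WDR11OE. Cox6c, a subunit of cytochrome c oxidase, was at 65.4 to 80.8 CPM and 145 to 182 CPM. None of the class I genes was a candidate, since the listed genes were left out.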

How the data were processed

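RNA-seq of 3 control G3 MBs and 4 tumors labelled WDR11OE was used. The authors mapped reads to NCBIM37 (mm9) with the StrongArm pipeline, and the submitters' processing notes name CASAVA 1.7, STAR, BWA and HTSeq. The deposited values are raw counts per gene, without normalization. The counting version and strand setting are not given in the sources used here, and the methods call the libraries stranded where the labels name a TruSeq RNA v2 kit.

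Counts were filtered with filterByExpr of edgeR 4.0.16 in R 4.3.3, scaled by TMM and tested with the quasi-likelihood test with condition as the only term, two-sided, with Benjamini-Hochberg adjustment over 17389 genes and a threshold of 0.05. CPM use TMM library sizes, and log2 CPM a prior count of 2. Single genes were compared by exact permutation over 35 splits, and so were the ratios of H2-K1 to the other members, which were not planned. The fit was tested on simulated data. Coordinates, exon length and GC content came from the GENCODE annotation of NCBIM37 (33606 genes matched, 97.1%). A count of 3 equals 0.0329 to 0.0924 CPM, depending on the library. Replicate pairs differed by more than sampling noise.

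The members and lists were chosen with earlier results of these data known. Named were all members, from each pathway list the 3 smallest p-values and both extremes, from marker lists the sums and counts (the rule also takes the extreme genes of those lists, left out here), the 5 patterns nearest to H2-K1, and Wdr11. Motifs and windows were chosen after seeing values. Alternatives were limma 3.58.1 with voom, DESeq2 1.42.0, other scalings, no filter or 1 CPM in 3 tumors, a loess on GC content with a span of 0.3, a prior count of 0.5 and each tumor left out. Chosen after seeing the data were WDR11OE 1 and 2 summed, and control 1 and WDR11OE 4 left out.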

Additional observations from a re-analysis of the deposited data

Results flagged for a closer look

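Within the 4 tumors labelled WDR11OE, 63 genes were examined for a tumor far from the others by the gap between neighbours over the range against Dixon's limit, which chance passes in about 1 of 20 groups, and 2 passed. Tpp2 was at 189 CPM in WDR11OE 1 and at 178 to 179 CPM in the others, a ratio of 0.918. Suz12 was at 134 CPM in WDR11OE 3 and at 117 to 119 CPM in the others, a ratio of 0.869. None of the 10 class I members passed this limit in these 4 tumors, and the 3 controls were too few to examine.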

How the results depend on the processing

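No paired analysis was possible because the labels carry no replicate numbers. Of the members, H2-K1 passed in 17 of 17 alternatives, H2-D1 in 16 and Erap1 in 16. The count of members called higher was 2 to 4, and that called lower was 1 with control 1 and WDR11OE 4 (both neuron-rich libraries) left out and 0 to 1 over single tumors left out. Over all genes, the count called higher was 2093 with no filter, 766 with the GC trend removed, 1629 with WDR11OE 1 and 2 summed and 1560 to 2986 with a tumor left out, and the count called lower was 1597 with the GC trend removed. Of the other pathway genes, the count called higher was 10, 5 and 6 in those settings and 6 to 18 with a tumor left out, and 15 were called lower with DESeq2. Signs turned for genes that had not passed and for Creb1, which had. With single tumors left out, the log2 fold change of Tap2 ranged from -0.27 to 0.40, of Calr from -0.40 to 0.045, of Psme1 from -0.17 to 0.13, of Ezh1 from -0.060 to 0.17, of Ezh2 from -0.11 to 0.0099 and of human WDR11 from -0.37 to 0.37. With both neuron-rich libraries left out, Tap2 was at -0.53 and Ezh1 at -0.067. With voom, Psme1 was at 0.012 and human WDR11 at -0.44, and with upper quartile scaling Psme1 was at 0.013. Human WDR11 was at -0.0048 with no filter and -0.18 with WDR11OE 1 and 2 summed. With the GC trend removed, Psme1 was at 0.14, Suz12 at -0.26, Wdr11 at -0.022 and Creb1, which had been called higher, at -0.063. The causes were not tested. Of the other pathway genes taken by the naming rule, which leaves out Irf2, Ifngr1, Ifngr2 and Nrd1, 22 were called and 8 of these passed in every alternative.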
